A study of Mus musculus with 12 samples.

Results

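Transcripts of 47 genes of the endoplasmic reticulum (ER) secretory pathway and of the unfolded protein response (UPR) were followed in mouse splenic B cells on Affymetrix mouse genome arrays. The genes were chosen by name, and each of the 47 symbols had at least 1 probe set of its own, out of 18193 genes with such a probe set. They carried 112 of the 45037 probe sets tested, and 34 of them had more than 1. By role they comprised 5 UPR sensors and factors, 11 chaperones and co-chaperones, 6 disulfide and prolyl isomerases, 8 genes of ER-associated degradation, 10 of the translocon and signal peptidase, 4 of the oligosaccharyltransferase, and 3 factors known from plasma cells.

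The cells came from wild type mice or from mice with the EFLmDREAM transgene, a form of DREAM, the calcium-binding protein of the Kcnip3 gene. Each genotype was measured unstimulated at day 0 and after 2 days in culture with bacterial lipopolysaccharide (LPS) at 20 µg/ml and interleukin 4 (IL-4) at 10 ng/ml. All 4 groups held B cells that had passed through CD43 depletion, with a stated purity above 98%, and each held 3 arrays of independent biological replicates. The promoter of the transgene, the mouse strain and the ages are not given in the sources used here. Culture for 2 days and the stimuli came together, so they cannot be told apart.

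Proteins bound for the cell surface or for secretion enter the ER through the Sec61 translocon, lose their signal peptide, receive N-linked glycans, and fold with the help of chaperones and disulfide isomerases. Chains that fail to fold are drawn back into the cytosol and degraded. When unfolded protein builds up, the sensors IRE1 (Ern1), PERK (Eif2ak3) and ATF6 raise folding and degradation capacity and slow translation, and B cells that become antibody-secreting plasma cells enlarge this whole apparatus, largely through the IRE1 target XBP1.

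Values are log2 probe set signals, so a difference of 1 is a 2-fold change, and changes are log2 differences ± SE with n = 3 arrays per group. A gene was called when the adjusted p of limma, over all 45037 probe sets, was under 0.05. Each gene is represented by its probe set of highest mean signal, and levels are compared between arrays for 1 probe set at a time. The number of arrays limits the precision. In bulk RNA, fewer cells of a type and less RNA per cell cannot be told apart.

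The label was checked on 13 B cell genes, whose mean signal per array was high, at 11.95 to 12.1 without stimulation and 10.53 to 10.66 after it. RMA signals are never 0, so no marker is listed at 0. Markers of other cells were higher in the unstimulated transgenic arrays. All 13 granulocyte markers were called higher, with mean signals per array of 6.25 to 6.41 in wild type and 9.02 to 9.51 in transgenic cells, and so were 16 of 19 markers of monocytes, macrophages and dendritic cells (7.31 to 7.55 against 8.53 to 8.73). Also higher were 5 of 8 erythroid, 5 of 15 T and NK cell, 2 of 8 platelet, 3 of 7 plasma cell and 6 of 8 marginal zone B cell markers. In stimulated cells the counts were 3 of 13, 5 of 19, 0 of 8, 0 of 15, 1 of 8, 2 of 7 and 3 of 8 in the same order. At an unadjusted limma p under 0.05, 1 of the 8 erythroid and 2 of the 15 T and NK cell markers were higher there. Of all genes 5.45% were called higher in unstimulated and 1.24% in stimulated transgenic cells. Replicate 1 of the unstimulated wild type cells stood apart in a measure of RNA integrity: its actin probes at the 5′ end minus those at the 3′ end gave −2.22, against −1.36 to −0.43 in the other 11 arrays.

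**Figure D1:**
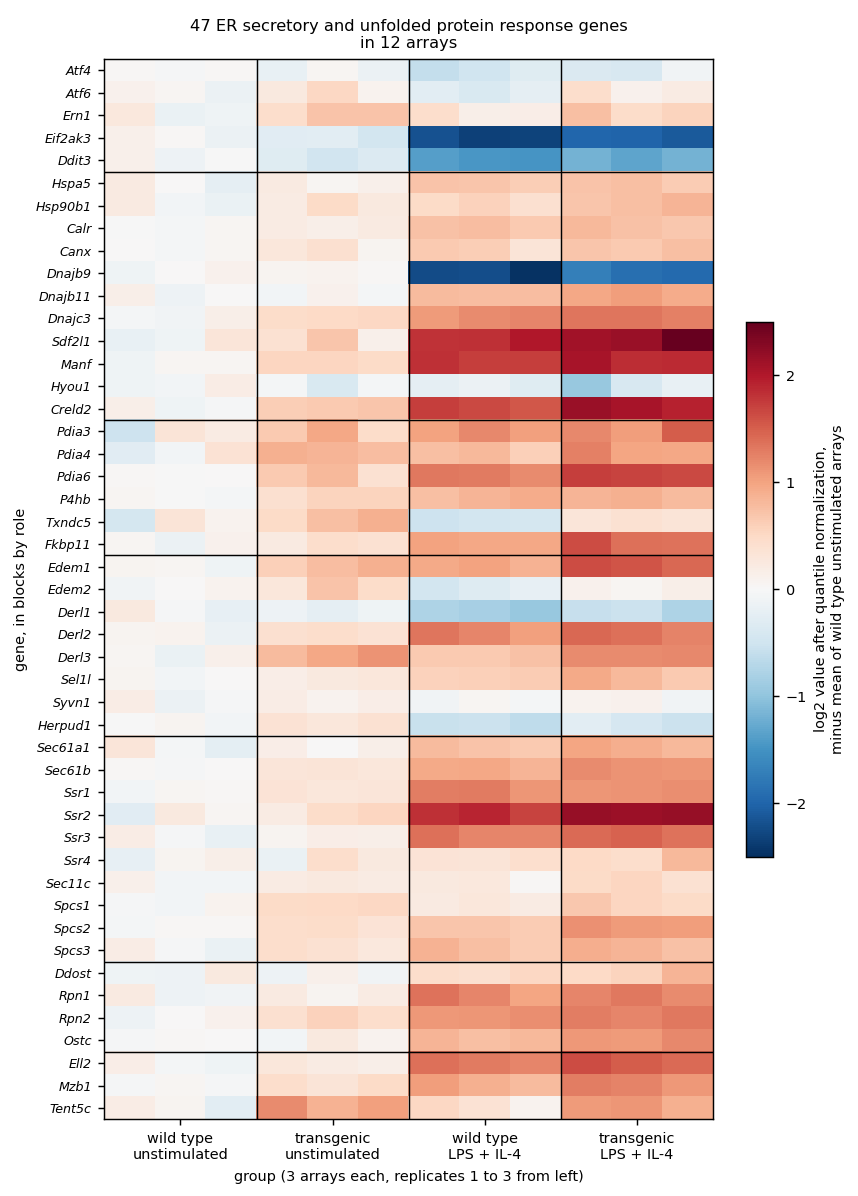
Heat map of the 47 genes (rows, in blocks by role in the order given in the text) in the 12 arrays (columns), as log2 signal after quantile normalization minus the mean of the 3 unstimulated wild type arrays; red is higher and blue lower. Most rows are red in the 6 stimulated arrays, while Eif2ak3, Ddit3 and Dnajb9 are blue there, and Derl3 and Tent5c are red in the 3 unstimulated transgenic arrays.

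The first comparison asked what stimulation with LPS and IL-4 does to these genes in wild type cells. Signals of most folding, translocation and glycosylation genes rose, while PERK, its downstream factor CHOP (Ddit3) and the co-chaperone ERdj4 (Dnajb9) fell, by 4.87-, 2.7- and 4.99-fold. Of the 47 genes, 32 were called higher and 8 lower, with a median change of 0.72. Across all 18193 genes 60% were called, 36% higher and 24% lower, with a median change of 0.0797. In transgenic cells 31 genes were called higher and 6 lower, with a median change of 0.56, beside 58.5% of all genes called (35.2% higher, 23.3% lower) and a median of 0.0828. Called rises of at least 2-fold were seen in 13 genes in wild type and 10 in transgenic cells, and such falls in 3 and 2. The share of all genes at this cut was not computed, so these counts are a description. Changes of all genes ran from −7.37 to 5.65 in wild type and from −7.39 to 6.08 in transgenic cells.

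Stimulation changes were computed after quantile normalization, because the deposited medians differ between the states. On that scale the changes of the genotypes had the same sign in 45 of the 47 genes, 34 positive and 11 negative. For all genes this share was not computed. When array medians were subtracted instead, the median of all genes was 0.26 for the wild type and 0.28 for the transgenic cells, and without any scaling it was −0.36 in both. The members then split 40 higher to 3 lower with medians subtracted, in either genotype, and 34 to 8 (wild type) or 33 to 8 (transgenic) without scaling. Probe sets of 1 gene were called in both directions for Atf6, Ern1, Pdia4, Derl1, Sec61a1, Ssr1 and Spcs1 in wild type cells, and for Ern1, Derl1, Sec61a1, Ssr1, Sec11c and Ell2 in transgenic cells. The B cell genes fell as well, 12 of 13 in each genotype. Granulocyte markers were called lower in 9 of 13 (wild type) and 13 of 13 (transgenic). Their part in the results was not tested.

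**Figure D2:**
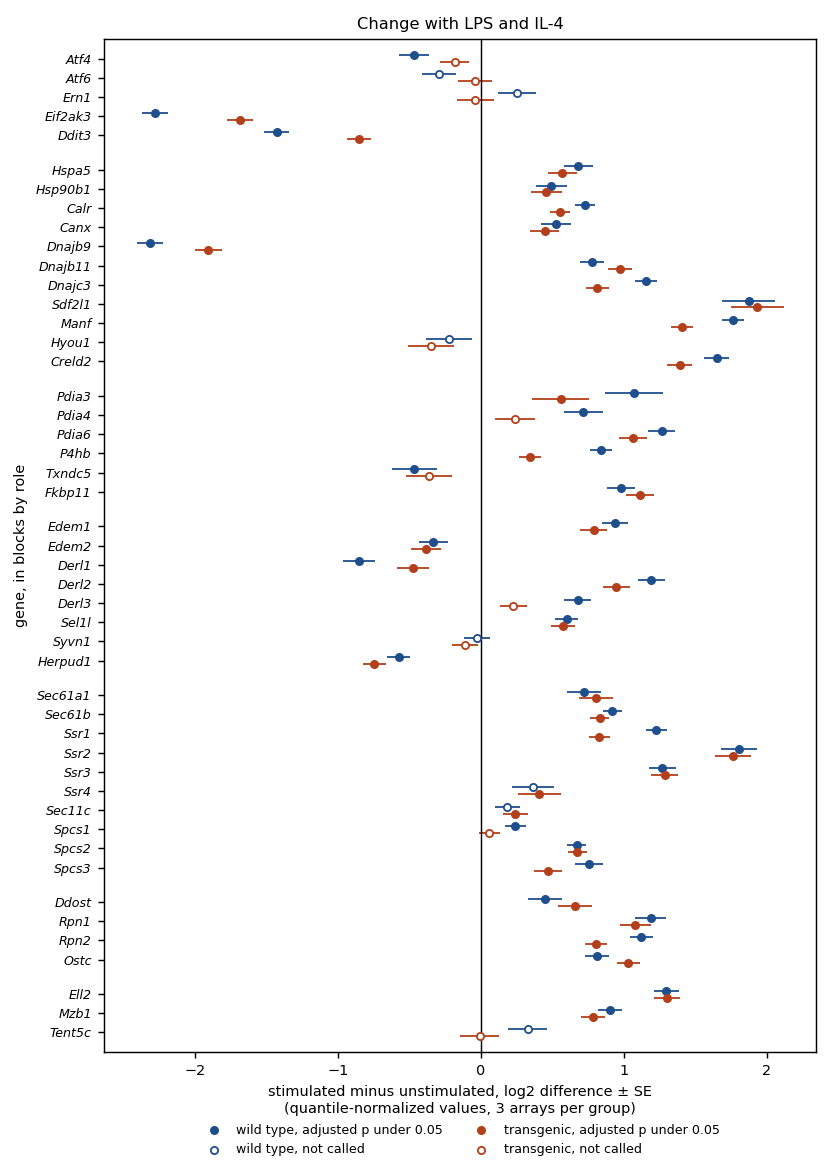
Change of each of the 47 genes with LPS and IL-4, as the log2 difference of stimulated minus unstimulated arrays ± SE (3 arrays per group, quantile-normalized), in wild type (blue) and transgenic cells (red); filled points have an adjusted p under 0.05. Sdf2l1, Ssr2, Manf and Creld2 lie farthest to the right, and Dnajb9, Eif2ak3 and Ddit3 farthest to the left, in both genotypes.

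None of the 5 UPR sensors and factors was called higher. Eif2ak3, which encodes the kinase PERK that slows translation under ER stress, read 11.02, 10.91 and 10.75 in unstimulated and 8.71, 8.55 and 8.57 in stimulated wild type arrays (quantile-normalized log2). It fell by 2.28 ± 0.089 (limma adjusted p = 2.44e-10) there and by 1.69 ± 0.089 (limma adjusted p = 4.33e-09) in transgenic cells, and the arrays of the states do not overlap. Ddit3, the stress-induced transcription factor CHOP, read 9.19, 8.93 and 9.05 before and 7.69, 7.6 and 7.59 after stimulation in wild type cells. Its change was −1.43 ± 0.086 (limma adjusted p = 1.27e-08) in wild type and −0.85 ± 0.086 (limma adjusted p = 1.95e-06) in transgenic cells, again with no overlap. Atf4, the factor whose translation PERK promotes, changed by −0.47 ± 0.10 (limma adjusted p = 0.00169) in wild type and −0.18 ± 0.10 (limma adjusted p = 0.152) in transgenic cells. The wild type change of Atf4 turned to a rise of 0.44 with array medians subtracted. The sensors Ern1 and Atf6 were not called in either genotype, but other probe sets of both were called, in opposite directions in wild type cells.

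Most chaperones rose, with 9 of 11 called higher and 1 lower in each genotype. Hspa5 encodes BiP, the main ER chaperone, and its signal of 12.59, 12.37 and 12.14 in unstimulated wild type arrays stood against 13.08, 13.07 and 12.99 after stimulation. All stimulated arrays lay above all unstimulated ones, and the rise was 0.68 ± 0.10 (limma adjusted p = 7.92e-05) in wild type and 0.57 ± 0.10 (limma adjusted p = 0.000374) in transgenic cells. In wild type cells the rise of Hspa5 was 1.38 with array medians subtracted and 0.44 as the mean of its probe sets. Manf, a secreted ER stress protein, rose from 10.0, 10.14 and 10.14 to 11.92, 11.82 and 11.83 in wild type arrays, a change of 1.76 ± 0.078 (limma adjusted p = 8.21e-10). Sdf2l1, a component of the ER chaperone complex, rose by 1.88 ± 0.19 (limma adjusted p = 1.65e-06) in wild type and 1.94 ± 0.19 (limma adjusted p = 1.32e-06) in transgenic cells. After quantile normalization these were the largest rises among the probe sets that represent the 47 genes. Over all 112 probe sets of the members the largest rise in wild type cells was 2.24. In wild type cells Manf rose more than Sdf2l1 on unscaled values (2 against 1.73) and with array medians subtracted (2.62 against 2.34). Creld2, a secreted ER stress gene, rose by 1.65 ± 0.088 (limma adjusted p = 4.53e-09) and 1.39 ± 0.088 (limma adjusted p = 2.59e-08). The lectin chaperones Calr and Canx, the HSP90 of the ER (Hsp90b1) and the co-chaperones Dnajb11 and Dnajc3 rose by 0.49 to 1.15 in wild type cells. With array medians subtracted, the wild type rises of Calr, Canx, Hsp90b1 and Dnajb11 were 1.52, 1.41, 1.43 and 1.53. The mean of probe sets gave 1.09 for Canx and 1.35 for Hsp90b1. Dnajb9 went the other way. This BiP co-chaperone, which holds IRE1 inactive, read 11.46, 11.57 and 11.66 in unstimulated and 9.32, 9.34 and 9.08 in stimulated wild type arrays, with no overlap. Its change was −2.32 ± 0.093 (limma adjusted p = 3.16e-10) in wild type and −1.91 ± 0.093 (limma adjusted p = 2.11e-09) in transgenic cells. Hyou1, a large HSP70 relative, was not called in either genotype.

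Among the isomerases, which form and rearrange disulfide bonds or turn proline bonds, 5 of 6 rose in wild type and 4 of 6 in transgenic cells. Pdia6 changed by 1.26 ± 0.096 (limma adjusted p = 1.21e-07) and 1.06 ± 0.096 (limma adjusted p = 6.96e-07), and Fkbp11, a prolyl isomerase, by 0.98 ± 0.096 (limma adjusted p = 1.38e-06) and 1.11 ± 0.096 (limma adjusted p = 4.46e-07) in wild type and transgenic cells. Txndc5 fell in wild type cells by 0.47 ± 0.16 (limma adjusted p = 0.0221). The call of Txndc5 did not survive leaving out unstimulated wild type replicates 2 or 3, or stimulated wild type replicates 1 or 2 (limma adjusted p from 0.0507 to 0.108). With array medians subtracted the change of Txndc5 was 0.28. Pdia3 rose by 0.56 ± 0.20 (limma adjusted p = 0.0306) in transgenic cells. Without unstimulated transgenic replicates 1 or 3, or stimulated transgenic replicates 1 or 3, Pdia3 missed the threshold (limma adjusted p from 0.0568 to 0.122). With the mean of all probe sets the wild type rises of Pdia6 and Fkbp11 were 0.58 and 0.3, and Pdia4, which rose by 0.72 ± 0.14 (limma adjusted p = 0.000669), was not called at 0.19 (limma adjusted p = 0.12).

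ER-associated degradation genes moved in both directions. Edem1, a lectin that delivers glycoproteins for degradation, rose by 0.94 ± 0.092 (limma adjusted p = 1.37e-06) in wild type cells, and the dislocation factor Derl2 rose by 1.19 ± 0.094 (limma adjusted p = 1.79e-07). Its relative Derl1 fell by 0.85 ± 0.11 (limma adjusted p = 1.92e-05) in wild type and 0.48 ± 0.11 (limma adjusted p = 0.00238) in transgenic cells. Herpud1, which organises the degradation complex, fell by 0.57 ± 0.08 (limma adjusted p = 3.77e-05) and 0.75 ± 0.08 (limma adjusted p = 3.53e-06). With array medians subtracted, the signs of Derl1, Edem2 and Herpud1 turned in both genotypes, so these falls depend on the scaling. Of the ligase pair, Sel1l rose by 0.60 ± 0.082 (limma adjusted p = 3.46e-05) in wild type cells, and Syvn1 was not called, with a difference of −0.031 ± 0.091 (limma adjusted p = 0.795). Edem2 was no longer called without stimulated wild type replicate 1 (limma adjusted p = 0.0683). The mean of all probe sets gave 0.47 for Edem1, −0.19 for Derl1 in wild type and −0.043 for Derl1 in transgenic cells, the last not called.

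The entry and glycosylation machinery rose with few exceptions. Called higher were 8 of 10 translocon and signal peptidase genes in wild type and 9 of 10 in transgenic cells, and all 4 oligosaccharyltransferase genes in both. Ssr2, a subunit of the translocon-associated TRAP complex, read 7.71, 8.25 and 8.04 in unstimulated and 9.83, 9.91 and 9.68 in stimulated wild type arrays. The groups do not overlap, and the rise was 1.80 ± 0.13 (limma adjusted p = 5.63e-08), with 1.76 ± 0.13 (limma adjusted p = 7.89e-08) in transgenic cells. Sec61b, a subunit of the channel, rose by 0.92 ± 0.066 (limma adjusted p = 7.7e-08). The oligosaccharyltransferase subunits Rpn1 and Rpn2 rose by 1.19 ± 0.11 (limma adjusted p = 8e-07) and 1.12 ± 0.078 (limma adjusted p = 5.46e-08) in wild type cells. In transgenic cells Sec11c, a catalytic subunit of signal peptidase, changed by 0.24 ± 0.086 (limma adjusted p = 0.0309), and Ssr4 by 0.41 ± 0.15 (limma adjusted p = 0.0327). The call of Sec11c did not survive leaving out unstimulated transgenic replicates 1, 2 or 3, or stimulated transgenic replicates 1 or 2 (limma adjusted p from 0.0547 to 0.104). Without unstimulated transgenic replicates 1 or 3, or stimulated transgenic replicate 3, Ssr4 missed the threshold (limma adjusted p from 0.0503 to 0.16). The mean of their probe sets gave −0.11 for Sec11c and 0.075 for Ssr4, neither called. Spcs1, another signal peptidase subunit, rose by 0.24 ± 0.074 (limma adjusted p = 0.0139) in wild type cells. Spcs1 was no longer called without unstimulated wild type replicate 2 (limma adjusted p = 0.0555). The mean of its probe sets gave −0.19.

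Of the 3 factors known from plasma cells, Ell2, an elongation factor that favours the secreted form of immunoglobulin mRNA, rose by 1.30 ± 0.09 (limma adjusted p = 5.33e-08) in wild type and 1.30 ± 0.09 (limma adjusted p = 5.64e-08) in transgenic cells, or by 0.6 and 0.57 as the mean of its probe sets. Mzb1, a B cell chaperone that assists antibody assembly, rose by 0.91 ± 0.083 (limma adjusted p = 7.62e-07) and 0.79 ± 0.083 (limma adjusted p = 3.2e-06). Tent5c, a poly(A) polymerase that stabilises mRNA of secreted proteins, was not called in either genotype.

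Promoter sequence was examined for elements known from ER chaperone genes. The ER stress response element (ERSE), bound by ATF6 and XBP1 with NF-Y, is written CCAAT, 9 bases of any kind, then CCACG, and was searched, like the motifs named after it, on both strands. RefSeq promoter windows of 250 bases before to 50 after the transcription start (GRCm38.p6) were matched for 37 of the 47 genes. The element occurred in 9 of the 37 (24.3%) and in 37 of 27025 genes with a window (0.137%). These windows are shown because the element is the best-known switch of ER chaperone genes. The 47 genes were chosen by name as ER and UPR genes. The shares of this and the related elements depend on that choice and are no result of the expression values. Each stretch below is printed 5′ to 3′ on the strand of its gene, with 12 bases on each side, and the capitals mark the CCAAT and CCACG parts or their reverse complements ATTGG and CGTGG.
Hspa5: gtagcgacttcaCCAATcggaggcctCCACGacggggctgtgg
Hsp90b1: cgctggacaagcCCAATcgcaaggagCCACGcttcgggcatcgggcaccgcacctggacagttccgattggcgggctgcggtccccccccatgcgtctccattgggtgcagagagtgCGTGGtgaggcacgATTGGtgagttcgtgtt
Calr: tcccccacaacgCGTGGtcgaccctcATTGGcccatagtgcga
Canx: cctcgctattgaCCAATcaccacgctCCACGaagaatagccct
Dnajc3: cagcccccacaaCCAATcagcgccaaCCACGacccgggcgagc
Creld2: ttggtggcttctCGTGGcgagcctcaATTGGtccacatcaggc
Pdia6: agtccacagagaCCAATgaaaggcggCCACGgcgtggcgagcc
Derl3: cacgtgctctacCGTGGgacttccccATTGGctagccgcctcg
Syvn1: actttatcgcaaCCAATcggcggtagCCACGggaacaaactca
Hsp90b1 holds the element at 2 places, once in each orientation. The stretches lie before the transcription start, that of Hspa5 at chr2:34772013-34772055 (plus strand), Hsp90b1 at chr10:86705521-86705668 (minus), Calr at chr8:84847063-84847105 (minus), Canx at chr11:50325788-50325830 (minus) and Pdia6 at chr12:17266479-17266521 (plus). Dnajc3 has it at chr14:118937815-118937857, Creld2 at chr15:88819508-88819550, Derl3 at chr10:75893230-75893272 and Syvn1 at chr19:6046520-6046562, all on the plus strand. With stimulation 8 of these 9 genes were called higher in wild type and 7 in transgenic cells, beside 18 and 17 of the 28 genes whose window lacks it. None of the 9 was called lower, beside 7 and 5 of the 28. Of all genes 36% and 35.2% were called higher, and 24% and 23.3% lower. The median changes were nearly the same, 0.68 with the element and 0.69 without it in wild type cells, and 0.55 and 0.57 in transgenic cells. The related element ERSE-II (ATTGG, 1 base of any kind, then CCACG) was found in the windows of Herpud1 and, past its start, Dnajb11, which is 5.41% of the 37 against 0.0444% of all genes. The XBP1 core TGACGTGG was found in Txndc5 alone of the 37, against 0.714% of all genes. The ATF4 and CHOP composite element TGATGNAAT was in none of the 37 and in 1.08% of all genes. CCACG alone, which the ERSE, ERSE-II and XBP1 core hold on 1 strand, was in 78.4% of the 37 and 35.5% of all genes, and CCAAT alone in 81.1% and 41.1%. A match describes the letters and shows no binding.

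The second comparison asked how unstimulated transgenic cells differ from unstimulated wild type cells. Called higher in transgenic cells, all by less than 2-fold on the deposited scale, were 5 of 6 isomerases, 2 of 3 plasma cell factors, 4 of 8 degradation genes, 4 of 11 chaperones, 3 of 10 translocon and signal peptidase genes, 1 of 4 oligosaccharyltransferase genes and 1 of 5 sensors and factors. PERK and CHOP were called lower, and both calls ended when 1 wild type array was left out. Of the 47 genes 20 were called higher and 2 lower, with a median difference of 0.28 on the deposited log2 scale. Among all genes 10.4% were called (5.45% higher, 4.9% lower), with a median of 0.0133. The 3 wild type and 3 transgenic arrays did not overlap in 27 of the 47 genes, against 25.4% of all genes. By probe set, 33 of 112 were called higher and 3 lower, against 9.45% of all probe sets called (4.47% higher, 4.98% lower). At the probe sets that represent them, the 25 genes that were not called had differences from −0.21 (Hyou1) to 0.61 (Pdia3). Over all 112 probe sets of the members, called or not, the differences ran from −0.547 to 1.46.

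Without replicate 1 of the wild type cells, the array with the widest gap between actin probes, 18 of the 47 were called higher and none lower, Eif2ak3 and Ddit3 having a limma adjusted p of 0.117 and 0.0522. Hsp90b1 and Spcs3 were then called higher, and Calr, Fkbp11, Edem2 and Herpud1 were not. Without transgenic replicate 2, and likewise without replicate 3, 13 were called higher. With the mean of all probe sets of a gene 17 were called higher and none lower, and Ern1, Dnajc3, Pdia6, Txndc5, Fkbp11, Edem2 and Herpud1 were no longer among them. With only the 6 arrays compared, 10 were called higher and none lower. The markers of granulocytes, myeloid and erythroid cells given above differ between these same groups, by a median of 2.65, 1.13 and 1.86. Those of plasma cells and marginal zone B cells differ by a median of 0.513 and 0.598, and those of T and NK cells and platelets by 0.44 and 0.245. The part of any of these cells in the differences was not tested.

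**Figure D3:**
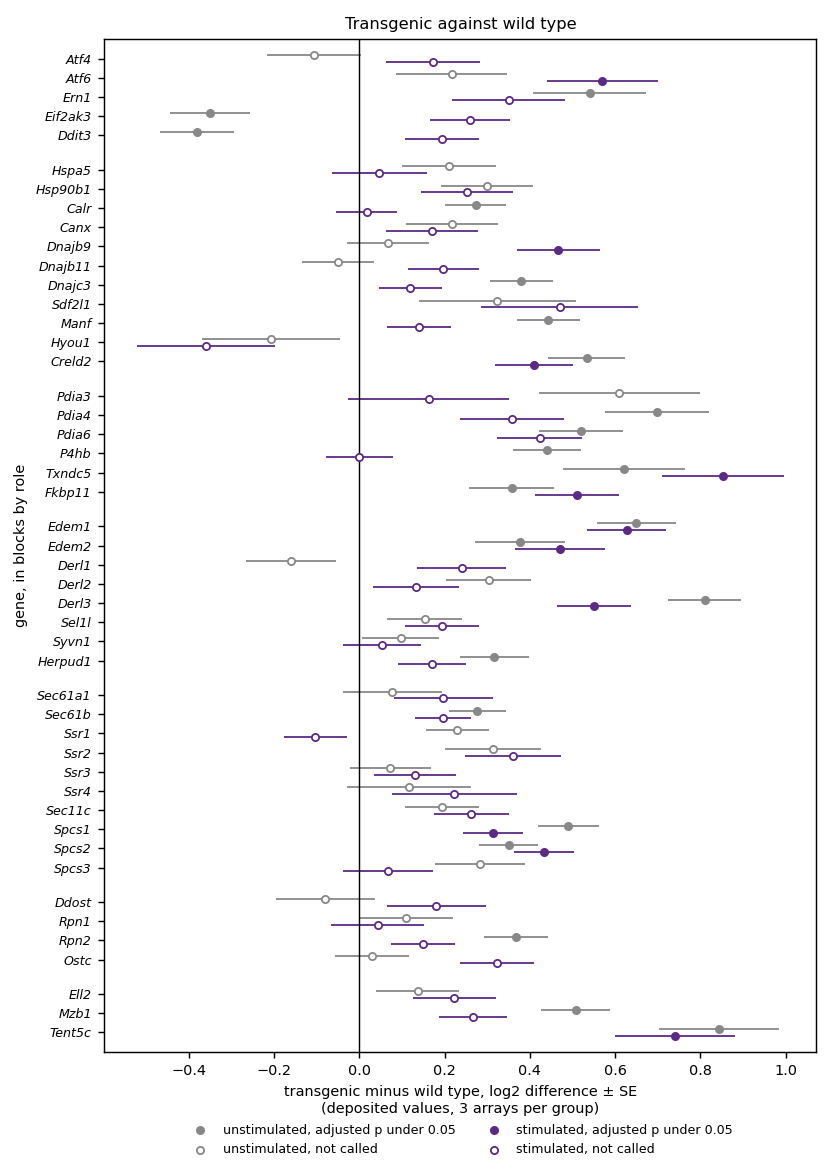
Difference between genotypes for each of the 47 genes, as the log2 difference of transgenic minus wild type arrays ± SE (3 arrays per group, deposited values), in unstimulated (grey) and stimulated cells (purple); filled points have an adjusted p under 0.05. Most points lie to the right of 0, and the filled grey points of Eif2ak3 and Ddit3 lie to its left.

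Of the sensors and factors, Eif2ak3 and Ddit3 were called lower and Ern1 higher in unstimulated transgenic cells, at the probe sets that represent them. None of these calls held with the mean of all probe sets. With only the 6 arrays compared they were not called either (limma adjusted p from 0.0679 to 0.116). Eif2ak3 read 10.91, 10.78 and 10.63 in wild type and 10.46, 10.52 and 10.29 in transgenic arrays. The transgenic arrays were all lower, by 0.35 ± 0.094 (limma adjusted p = 0.0343). The call of Eif2ak3 did not survive leaving out unstimulated wild type replicates 1 or 2, or unstimulated transgenic replicates 1 or 3 (limma adjusted p from 0.0747 to 0.147). Ddit3 read 9.27, 9.0 and 9.04 in wild type and 8.78, 8.66 and 8.73 in transgenic arrays, with no overlap and a difference of −0.38 ± 0.087 (limma adjusted p = 0.0165). Without unstimulated wild type replicate 1, or unstimulated transgenic replicates 2 or 3, Ddit3 missed the threshold (limma adjusted p from 0.0522 to 0.0598). The mean of all probe sets gave a difference of −0.17 for Eif2ak3 (limma adjusted p = 0.305) and 0.017 for Ddit3 (limma adjusted p = 0.928). Ern1, the IRE1 sensor, read 7.67, 7.25 and 7.28 in wild type and 7.78, 8.04 and 8.0 in transgenic arrays. All transgenic arrays were higher, and the difference was 0.54 ± 0.13 (limma adjusted p = 0.0237). Ern1 was no longer called without unstimulated wild type replicate 2, or unstimulated transgenic replicates 2 or 3 (limma adjusted p from 0.0808 to 0.0918). Ern1 averaged 0.15 over its probe sets (limma adjusted p = 0.131). The differences of Atf6 and Atf4 were 0.22 ± 0.13 (limma adjusted p = 0.344) and −0.11 ± 0.11 (limma adjusted p = 0.61), and neither was called.

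Chaperones were called higher in 4 of 11 genes. Creld2 read 9.12, 8.85 and 8.87 in wild type and 9.44, 9.51 and 9.49 in transgenic arrays, which do not overlap. The difference was 0.53 ± 0.091 (limma adjusted p = 0.003). Manf and Dnajc3 were higher by 0.44 ± 0.074 (limma adjusted p = 0.00242) and 0.38 ± 0.074 (limma adjusted p = 0.00646), and Calr by 0.27 ± 0.072 (limma adjusted p = 0.0327). The call of Calr did not survive leaving out unstimulated wild type replicates 1 or 2, or unstimulated transgenic replicates 1, 2 or 3 (limma adjusted p from 0.059 to 0.119). Dnajc3 averaged 0.16 over its probe sets (limma adjusted p = 0.377), and Calr was not called after quantile normalization (0.2, limma adjusted p = 0.0914). BiP was not among them: Hspa5 read 12.52, 12.25 and 12 in wild type and 12.58, 12.36 and 12.46 in transgenic arrays, which overlap. Its difference was 0.21 ± 0.11 (limma adjusted p = 0.277), with a 95% interval from −0.031 to 0.451. Without replicate 1 of the wild type cells the difference of Hspa5 was 0.34 ± 0.094, just outside the threshold (limma adjusted p = 0.05), and a second Hspa5 probe set was called at 0.42 ± 0.082 (limma adjusted p = 0.00766). Hsp90b1 was then called at 0.41 ± 0.099 (limma adjusted p = 0.026). A second probe set of Hsp90b1 read 7.8, 9.51 and 9.33 in wild type and 10.23, 10.6 and 10.08 in transgenic arrays, and its lowest value is in replicate 1 of the wild type cells. Without that array this second probe set differed by 0.88 ± 0.15 (limma adjusted p = 0.00339).

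Isomerases were called higher in 5 of 6 genes, with a median difference of 0.56. P4hb, a disulfide isomerase that is also a subunit of collagen prolyl hydroxylase, read 10.29, 10.21 and 10.15 in wild type and 10.54, 10.73 and 10.7 in transgenic arrays. The groups do not overlap, and the difference was 0.44 ± 0.079 (limma adjusted p = 0.00401). Pdia4 and Pdia6, of the same family, were higher by 0.70 ± 0.12 (limma adjusted p = 0.00331) and 0.52 ± 0.099 (limma adjusted p = 0.00586). Txndc5 was higher by 0.62 ± 0.14 (limma adjusted p = 0.0172) and Fkbp11 by 0.36 ± 0.099 (limma adjusted p = 0.0397). Without unstimulated transgenic replicates 2 or 3, Txndc5 missed the threshold (limma adjusted p from 0.0586 to 0.0831). Fkbp11 was no longer called without unstimulated wild type replicates 1 or 2, or unstimulated transgenic replicates 1, 2 or 3 (limma adjusted p from 0.0512 to 0.131). With the mean of all probe sets Pdia4 differed by 0.41 and was still called, while Pdia6 (0.24, limma adjusted p = 0.0548), Txndc5 (0.32, 0.0609) and Fkbp11 (0.1, 0.405) were not. With only the 6 arrays compared, Pdia6 had a limma adjusted p of 0.0526. Pdia3, the isomerase that works with calnexin and calreticulin, was not called at 0.61 ± 0.19 (limma adjusted p = 0.0625), and its lowest value was 9.75 in replicate 1 of the wild type cells.

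In ER-associated degradation 4 of 8 genes were called higher. Derl3, a Derlin found in secretory cells, read 7.79, 7.58 and 7.79 in wild type and 8.39, 8.56 and 8.64 in transgenic arrays. All transgenic arrays were higher, by 0.81 ± 0.086 (limma adjusted p = 8.78e-05), or 1.75-fold. Edem1 read 9.61, 9.56 and 9.37 in wild type and 10.01, 10.21 and 10.27 in transgenic arrays, again without overlap, and differed by 0.65 ± 0.093 (limma adjusted p = 0.000868). Edem2 and Herpud1 were higher by 0.38 ± 0.11 (limma adjusted p = 0.0418) and 0.32 ± 0.08 (limma adjusted p = 0.0271). The call of Edem2 did not survive leaving out unstimulated wild type replicates 1 or 2, or unstimulated transgenic replicates 2 or 3 (limma adjusted p from 0.0874 to 0.141). Without unstimulated wild type replicate 1, or unstimulated transgenic replicates 1, 2 or 3, Herpud1 missed the threshold (limma adjusted p from 0.052 to 0.102). The mean of all probe sets gave 0.1 for Edem2 (limma adjusted p = 0.462) and 0.23 for Herpud1 (limma adjusted p = 0.0612). Sel1l was not called at the probe set that represents it. Without replicate 1 of the wild type cells, other Sel1l probe sets were called at 0.83 ± 0.11 (limma adjusted p = 0.000575) and 0.53 ± 0.088 (limma adjusted p = 0.00315). The representative one (0.20) and the remaining ones (0.09 and 0.41) were not called there.

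Of the entry and glycosylation genes, 3 of 10 translocon and signal peptidase genes and 1 of 4 oligosaccharyltransferase genes were called higher. The signal peptidase subunit Spcs1 read 11.12, 11.06 and 11.21 in wild type and 11.59, 11.63 and 11.64 in transgenic arrays. Its groups do not overlap, and the difference was 0.49 ± 0.071 (limma adjusted p = 0.000968). Spcs2 was higher by 0.35 ± 0.07 (limma adjusted p = 0.0076), Rpn2 by 0.37 ± 0.075 (limma adjusted p = 0.0088) and Sec61b by 0.28 ± 0.066 (limma adjusted p = 0.0201). Sec61b was no longer called without unstimulated wild type replicate 2, or unstimulated transgenic replicates 1, 2 or 3 (limma adjusted p from 0.0547 to 0.0667). The mean of its probe sets brought Spcs1 to 0.27, still called, and with only the 6 arrays compared Spcs2 and Rpn2 were not called (limma adjusted p = 0.0552 and 0.0602). Sec61a1, the pore subunit, has 6 probe sets, called in both directions here. Without replicate 1 of the wild type cells, 4 of them were called higher and none lower.

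Both Tent5c and Mzb1 were higher in unstimulated transgenic cells. Tent5c read 8.35, 8.21 and 7.85 in wild type and 9.13, 8.86 and 8.95 in transgenic arrays. The difference was 0.84 ± 0.14 (limma adjusted p = 0.00253), or 1.79-fold, with no overlap. Mzb1 read 11.65, 11.7 and 11.65 in wild type and 12.19, 12.09 and 12.24 in transgenic arrays. Its transgenic arrays were all higher, by 0.51 ± 0.08 (limma adjusted p = 0.00177). Ell2 was not called, at 0.14 ± 0.097 (limma adjusted p = 0.436).

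**Figure D4:**
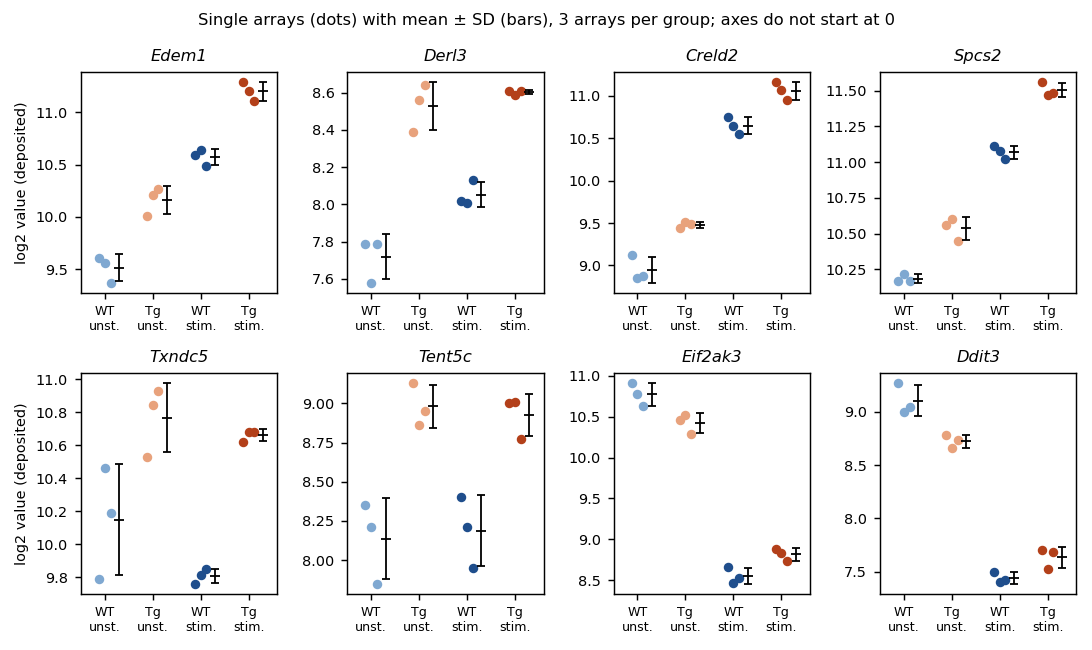
Deposited log2 signal of 8 genes in every array (dots) with the mean ± SD of the 3 arrays of each group (bars), for wild type (WT) and transgenic (Tg) cells, unstimulated (unst.) and stimulated (stim.). In the top row and in Txndc5 and Tent5c the transgenic arrays lie above the wild type arrays of the same state; Eif2ak3 and Ddit3 are lower in unstimulated transgenic arrays and fall with stimulation in both genotypes.

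The third comparison asked the same of stimulated cells. Called higher in transgenic cells were 3 of 8 degradation genes, 2 of 6 isomerases, 2 of 11 chaperones, 2 of 10 translocon and signal peptidase genes, 1 of 5 sensors and factors, and 1 of 3 plasma cell factors. These were 11 of the 47, with none called lower, with a median difference of 0.22 and none of 2-fold or more, against 2.34% of all genes called (1.24% higher, 1.1% lower). Without wild type replicate 1, 2 or 3 the count was 6, 4 or 5, and without transgenic replicate 1 or 2 it was 4 or 5. At an unadjusted limma p under 0.05, Hyou1 alone of the 47 was lower. At the probe sets that represent them, the 36 genes that were not called had differences from −0.36 (Hyou1) to 0.47 (Sdf2l1). In 29 of the 47 genes the wild type and transgenic arrays were separate, against 22% of all genes. Of the 11, 9 had also been called in unstimulated cells, and Atf6 and Dnajb9 had not. The difference had a positive sign in both states in 38 of the 47 genes and a negative one in both in 1. The matching share of all genes was not computed, so this count is a description. The estimates share no arrays, but same-numbered wild type replicates deviated together between the states (r = 0.318, 0.175 and 0.19). In transgenic cells these values were 0.069, −0.16 and 0.115.

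Edem1 read 10.59, 10.64 and 10.49 in stimulated wild type and 11.29, 11.2 and 11.11 in stimulated transgenic arrays. The groups do not overlap, and the difference of 0.63 ± 0.093 (limma adjusted p = 0.00302) was close in size to that in unstimulated cells. Derl3 read 8.02, 8.01 and 8.13 in wild type and 8.61, 8.59 and 8.61 in transgenic arrays, a difference of 0.55 ± 0.086 (limma adjusted p = 0.00424) without overlap. Edem2 differed by 0.47 ± 0.11 (limma adjusted p = 0.0411). The call of Edem2 did not survive leaving out stimulated wild type replicates 1 or 2, or stimulated transgenic replicates 1, 2 or 3 (limma adjusted p from 0.0866 to 0.161). Averaged over its probe sets, Edem2 differed by 0.26 (limma adjusted p = 0.108).

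Of the isomerases, Txndc5 read 9.76, 9.81 and 9.85 in wild type and 10.62, 10.68 and 10.68 in transgenic arrays. All transgenic arrays were higher, by 0.85 ± 0.14 (limma adjusted p = 0.00695), or 1.81-fold, and by 0.57 as the mean of its probe sets. Fkbp11 was higher by 0.51 ± 0.099 (limma adjusted p = 0.0178). Without stimulated wild type replicates 1, 2 or 3, or stimulated transgenic replicate 1, Fkbp11 missed the threshold (limma adjusted p from 0.0579 to 0.0742). As the mean of its probe sets Fkbp11 differed by 0.23 (limma adjusted p = 0.107). P4hb, higher in unstimulated transgenic cells, read 11.19, 11.29 and 11.37 in wild type and 11.28, 11.32 and 11.25 in transgenic arrays here, which overlap, and its difference was 0.00 ± 0.079 (limma adjusted p = 1). The neighbouring isomerase Pdia6 was just outside the threshold at 0.42 ± 0.099 (limma adjusted p = 0.0505).

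Spcs2 read 11.11, 11.08 and 11.02 in wild type and 11.56, 11.47 and 11.48 in transgenic arrays, and the difference without overlap was 0.43 ± 0.07 (limma adjusted p = 0.00499). Spcs1 was higher by 0.31 ± 0.071 (limma adjusted p = 0.0449). With the replicate number as a block, the difference of Spcs1 was 0.31 ± 0.077 (limma adjusted p = 0.0668). Leaving out any of the 6 arrays ended the call of Spcs1 (limma adjusted p from 0.0733 to 0.172).

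The sensor Atf6 and the co-chaperone Dnajb9 were called in stimulated cells. Atf6 read 7.47, 7.33 and 7.56 in wild type and 8.25, 7.86 and 7.96 in transgenic arrays, which do not overlap, and differed by 0.57 ± 0.13 (limma adjusted p = 0.0454). Leaving out any of the 6 arrays ended the call of Atf6 (limma adjusted p from 0.06 to 0.183). Over all its probe sets Atf6 averaged 0.29 (limma adjusted p = 0.0797). Dnajb9 read 9.36, 9.36 and 9.11 in wild type and 9.91, 9.68 and 9.64 in transgenic arrays, again without overlap. The difference was 0.47 ± 0.097 (limma adjusted p = 0.0272). Without stimulated wild type replicates 2 or 3, or stimulated transgenic replicates 1 or 2, Dnajb9 missed the threshold (limma adjusted p from 0.0552 to 0.133). Hspa5, next to these, differed by 0.047 ± 0.11 (limma adjusted p = 0.958), with a 95% interval from −0.195 to 0.288.

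Creld2 and Tent5c completed the 11. Creld2 differed by 0.41 ± 0.091 (limma adjusted p = 0.0394) in stimulated cells. Creld2 was no longer called without stimulated wild type replicates 1, 2 or 3, or stimulated transgenic replicates 1 or 2 (limma adjusted p from 0.0558 to 0.179). Tent5c read 8.4, 8.21 and 7.95 in wild type and 9.0, 9.01 and 8.77 in transgenic arrays. The groups do not overlap, and the difference was 0.74 ± 0.14 (limma adjusted p = 0.0159). The call of Tent5c did not survive leaving out stimulated wild type replicates 2 or 3, or stimulated transgenic replicates 1 or 2 (limma adjusted p from 0.0579 to 0.086). Mean granulocyte marker signals per array were 4.87 to 4.93 in stimulated wild type and 5.21 to 5.38 in stimulated transgenic cells, and those of monocytes, macrophages and dendritic cells 6.0 to 6.23 and 6.51 to 6.8. In the same order, plasma cell markers gave 8.74 to 8.95 and 9.14 to 9.24. Marginal zone B cell markers gave 7.44 to 7.48 and 7.67 to 7.73, and platelet markers 5.36 to 5.39 and 5.66 to 5.69. The ranges of erythroid and of T and NK cell markers overlapped. The part of any of these cells in the differences was not tested.

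The fourth comparison tested whether stimulation changed a gene by a different amount in the genotypes, as the transgenic change minus the wild type change on the deposited scale. Only Eif2ak3 and Ddit3 of the 47 were called, both positive, against 1.98% of all genes (0.588% positive, 1.39% negative). Eif2ak3 had a difference of 0.61 ± 0.13 (limma adjusted p = 0.0394). Without unstimulated wild type replicates 1 or 2, unstimulated transgenic replicates 1 or 3, stimulated wild type replicates 2 or 3, or stimulated transgenic replicates 1, 2 or 3, Eif2ak3 missed the threshold (limma adjusted p from 0.0538 to 0.113). Ddit3 had a difference of 0.57 ± 0.12 (limma adjusted p = 0.0377). Ddit3 was no longer called without unstimulated transgenic replicates 1, 2 or 3, stimulated wild type replicates 1, 2 or 3, or stimulated transgenic replicates 1 or 3 (limma adjusted p from 0.0624 to 0.103). The mean of all probe sets gave 0.35 for Eif2ak3 (limma adjusted p = 0.257) and 0.1 for Ddit3 (limma adjusted p = 0.747). Both were lower in unstimulated transgenic cells, and in stimulated cells their genotype differences were 0.26 ± 0.094 (limma adjusted p = 0.26) and 0.19 ± 0.087 (limma adjusted p = 0.43), not called. P4hb had the largest negative estimate among the isomerases called higher in unstimulated cells, −0.44 ± 0.11 (limma adjusted p = 0.0784), which was called after quantile normalization (−0.50, limma adjusted p = 0.0349). For the other genes called in 1 state and not in the other, the difference between the states was not called.

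Genes around the 47 were followed with the same test. Of 31 further UPR regulators and targets, 4 (12.9%) were called higher and 3 (9.68%) lower in unstimulated transgenic cells. In stimulated ones 4 (12.9%) were called higher and 1 (3.23%) lower. Of all genes 5.45% were called higher and 4.9% lower unstimulated, and 1.24% and 1.1% stimulated. Xbp1, the IRE1 target that drives the plasma cell secretory programme, read 11.17, 10.98 and 10.96 in unstimulated wild type and 11.77, 11.75 and 11.84 in unstimulated transgenic arrays. The transgenic arrays were all higher, by 0.75 ± 0.086 (limma adjusted p = 0.000161). In stimulated cells Xbp1 read 12.57, 12.56 and 12.33 in wild type and 12.63, 12.67 and 12.6 in transgenic arrays, with a difference of 0.15 ± 0.086 (limma adjusted p = 0.609). It rose with stimulation by 1.23 ± 0.091 (limma adjusted p = 1.06e-07) in wild type and 0.67 ± 0.091 (limma adjusted p = 3.67e-05) in transgenic cells, and on the deposited scale these changes differed by −0.60 ± 0.12 (limma adjusted p = 0.0268). The call of Xbp1 did not survive leaving out unstimulated wild type replicate 2, unstimulated transgenic replicates 1, 2 or 3, stimulated wild type replicates 1 or 2, or stimulated transgenic replicates 1, 2 or 3 (limma adjusted p from 0.0502 to 0.0831). The difference of Xbp1 was −0.56 after quantile normalization, just outside the threshold (limma adjusted p = 0.05), and −0.49 with the mean of probe sets (limma adjusted p = 0.0683).

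Other genes of the UPR list were called in both directions. Chac1, a glutathione-degrading enzyme, and Asns, asparagine synthetase, were higher in unstimulated transgenic cells by 1.04 ± 0.12 (limma adjusted p = 0.000145) and 1.02 ± 0.13 (limma adjusted p = 0.000406). Bcl2l11, which encodes the cell death factor BIM, was lower by 0.98 ± 0.26 (limma adjusted p = 0.0333). Without unstimulated wild type replicates 2 or 3, or unstimulated transgenic replicates 1, 2 or 3, Bcl2l11 missed the threshold (limma adjusted p from 0.0558 to 0.113). Averaged over its probe sets, Bcl2l11 differed by −0.26 (limma adjusted p = 0.229). In stimulated cells Chac1 differed by 0.62 ± 0.12 (limma adjusted p = 0.0158) and the stress factor Atf3 by 0.65 ± 0.11 (limma adjusted p = 0.00646). Chac1 was no longer called without stimulated wild type replicates 2 or 3, or stimulated transgenic replicates 1 or 2 (limma adjusted p from 0.0542 to 0.0832). With stimulation of wild type cells Asns rose by 3.74 ± 0.14 (limma adjusted p = 1.96e-10), while Ppp1r15a, which reverses the PERK signal, fell by 3.55 ± 0.068 (limma adjusted p = 9.31e-13) and Atf3 by 2.38 ± 0.10 (limma adjusted p = 5.74e-10). In transgenic cells the changes were 3.04 ± 0.14 (limma adjusted p = 1.44e-09), −3.64 ± 0.068 (limma adjusted p = 9.1e-13) and −2.37 ± 0.10 (limma adjusted p = 7.03e-10) in the same order.

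Of 23 plasma cell genes outside the 47, 7 (30.4%) were called higher and 2 (8.7%) lower in unstimulated transgenic cells. In stimulated ones 4 (17.4%) were called higher and none lower. Of all genes 5.45% were called higher and 4.9% lower unstimulated, and 1.24% and 1.1% stimulated. At an unadjusted limma p under 0.05, 9 of the 23 were higher and 2 lower in stimulated cells, against 1081 and 1321 of all 18193 genes. With stimulation 8 were called higher and 11 lower in wild type cells, and 8 and 13 in transgenic cells. These are 34.8% and 47.8% in wild type, against 36% and 24% of all genes. In transgenic cells they are 34.8% and 56.5%, against 35.2% and 23.3%. The share called higher was thus near that of all genes. The interaction was called for 6 of the 23 (26.1%), Xbp1 among them, 2 positive and 4 negative. Of all genes it was called for 1.98% (0.588% positive, 1.39% negative). Prdm1 and Jchain of this list were followed by name. Prdm1, which encodes the plasma cell regulator BLIMP1, differed between genotypes by 0.27 ± 0.15 (limma adjusted p = 0.29) in unstimulated cells. In stimulated cells it read 7.92, 7.91 and 7.76 in wild type and 8.81, 8.69 and 8.55 in transgenic arrays. The transgenic arrays were all higher, by 0.82 ± 0.15 (limma adjusted p = 0.0117). The call of Prdm1 did not survive leaving out stimulated wild type replicate 3, or stimulated transgenic replicates 1 or 2 (limma adjusted p from 0.0524 to 0.0661). Jchain, which joins antibody polymers, was higher in transgenic cells by 0.51 ± 0.12 (limma adjusted p = 0.0192) unstimulated and 1.07 ± 0.12 (limma adjusted p = 0.000355) stimulated. Without unstimulated transgenic replicates 1, 2 or 3, Jchain missed the threshold (limma adjusted p from 0.0529 to 0.064). Stimulation lowered Jchain by 2.26 ± 0.12 (limma adjusted p = 3.19e-09) in wild type cells and raised Prdm1 by 1.53 ± 0.15 (limma adjusted p = 1.72e-06).

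In unstimulated cells 8 of 47 other ER chaperones and folding enzymes were called higher and none lower, with a median of 0.063. At an unadjusted limma p under 0.05, 3 of them were lower, as were 2176 of all 18193 genes. The largest called differences were in Nucb1, a calcium-binding protein of the secretory pathway, at 0.63 ± 0.094 (limma adjusted p = 0.00114), and in the ER chaperone Cnpy2 at 0.62 ± 0.14 (limma adjusted p = 0.0145). Cnpy2 was no longer called without unstimulated wild type replicate 2 (limma adjusted p = 0.0537). The mean of the Cnpy2 probe sets gave 0.28, still called. Of other degradation and quality control genes 2 of 31 were higher and 1 lower, of other translocon, signal recognition and glycosylation genes 1 of 42 and 1, and of ER-to-Golgi transport genes 4 of 50 and 1, against 5.45% and 4.9% of all genes. In stimulated cells these 4 lists held 2 called genes, where 2.34% of all genes were called (1.24% higher, 1.1% lower). They were the quality control lectin Os9 at 0.38 ± 0.07 (limma adjusted p = 0.0135) and Tram2, a translocon-associated protein, at 0.82 ± 0.12 (limma adjusted p = 0.00193). The call of Os9 did not survive leaving out stimulated wild type replicates 2 or 3, or stimulated transgenic replicate 2 (limma adjusted p from 0.0672 to 0.0703). The mean of the Tram2 probe sets gave 0.39, still called. At an unadjusted limma p under 0.05, 11 of the other chaperones were higher and 2 lower there, and 5 of the transport genes were higher. By that measure 1081 of all 18193 genes were higher and 1321 lower. With stimulation of wild type cells, 25, 13, 26 and 26 of these genes were called higher and 15, 9, 5 and 5 lower. These are 53.2%, 41.9%, 61.9% and 52% higher and 31.9%, 29%, 11.9% and 10% lower, against 36% and 24% of all genes.

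The profile of the 47 genes over the 12 arrays was also compared with that of other genes, after subtracting the mean of the 6 arrays of each state. The nearest profiles belonged to Glipr1, Lgals1, Ifi202b, Tfec and Anxa5, with Pearson r of 0.978, 0.977, 0.975, 0.972 and 0.968 to the mean of the 47. The arrays share the genotype split, and the correlation is a description. Among the 47 themselves, Sec61b followed the mean of the others most closely (r = 0.97), Hyou1 (−0.68) and Ddit3 (−0.26) had negative values, and Eif2ak3 was near 0 (−0.075).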

How the data were processed

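Total RNA (4 µg per array) of 12 B cell samples, 3 in each of 4 groups, was measured on 1-colour Affymetrix arrays. The authors deposited log2 probe set signals made with RMA and affy, per the submitters' processing notes; versions, and whether all arrays were normalized in 1 run, are not given in the sources used here. Deposited array medians ran from 5.97 to 6.05 without stimulation, and from 5.37 to 5.41 after it.

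Of 45101 probe sets, 64 controls were left out. Of the 45037 tested, 34945 carried 1 gene symbol, 932 several and 9160 none, and the 34945 were updated by Entrez identifier where they matched (34741). A gene is its probe set of highest mean over the 12 arrays. limma 3.58.1 in R 4.3.3 was fitted with 1 coefficient per group, a constant prior (8 residual degrees of freedom; 4.71 prior, or 4.55 after quantile normalization) and Benjamini-Hochberg adjustment over all 45037. Genotype and interaction contrasts used deposited values. Stimulation contrasts used values quantile-normalized between the 12 arrays, so an interaction is not exactly the difference of the printed changes. The procedure was tested on simulated data. Alternatives were the scaling, the prior, a filter on dim probe sets, the arrays in the fit, each array left out, the mean of a gene's probe sets, and the replicate block.

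Same-numbered replicates deviated together between stimulated genotypes (r = 0.33, 0.101 and 0.178) and between wild type states (0.318, 0.175 and 0.19), but not in every pair between unstimulated genotypes (0.078, 0.07 and 0.297) or transgenic states (0.069, −0.16 and 0.115). The labels state no pairing.

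The members and lists were chosen with earlier results of these data known. From the other lists up to 4 called genes of largest change per contrast could be named, with Xbp1, Prdm1 and Jchain, and 5 genes by likeness. Promoters are RefSeq windows of GRCm38.p6; Atf6, Manf, Hyou1, Derl1, Sec61a1, Ssr2, Sec11c, Spcs3, Ostc and Mzb1 were not matched.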

Additional observations from a re-analysis of the deposited data

Results flagged for a closer look

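For 5 genes, 2 of the 47 and 3 of the further UPR, folding and degradation genes, the change with stimulation differed between the genotypes by the interaction test of limma, given here as the transgenic minus the wild type change on the deposited log2 scale (n = 3 arrays per group). It was 0.61 for Eif2ak3 and 0.573 for Ddit3, both among the 47 genes. Outside them it was −0.603 for Xbp1, −0.603 for the glucosidase Mogs and 0.773 for the mannosidase-like Edem3. The adjusted p-values of limma were 0.0394, 0.0377, 0.0268, 0.0186 and 0.0499 in the same order. The test also called genes of the plasma cell list (6 of 23, Xbp1 among them) and of the marker lists, such as 12 of 13 granulocyte markers. Leaving out single arrays ended the call for each of the 5 genes, for Mogs with 3 of the 12 arrays (limma adjusted p from 0.0519 to 0.0566). No group had 4 or more arrays, so single arrays were not tested as outliers.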

How the results depend on the processing

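The limits are few arrays (3 per group), differing medians between the states, and small differences between genotypes. On deposited values these were under 2-fold in each of the 47 genes at the probe set that represents it. Over all 112 probe sets of the members the unstimulated differences ran from −0.547 to 1.46. Each alternative was applied alone, and members that were not called were followed only through the counts. The causes were not tested.

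In unstimulated cells, 10 genes were called higher in transgenic cells and 0 lower when only the 6 arrays compared were fitted. The mean of all probe sets of a gene left 17 called higher and 0 lower, ended 7 of the 20 higher calls and gave Ddit3 0.017. Leaving out single arrays gave 13 to 21 higher and 0 to 2 lower. In stimulated cells 7 were called higher with array medians subtracted, and 4 to 8 when single arrays were left out. For the interaction, 1 positive call was left with array medians subtracted, 0 with the mean of probe sets and 0 to 2 with single arrays left out. There was 1 negative call, P4hb, with quantile normalization, 1 with a trended robust prior and 1 with the mean of probe sets.

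With array medians subtracted, 3 genes were called lower with stimulation in wild type and 3 in transgenic cells. Signs then turned for Atf4 (0.443), Txndc5 (0.277), Edem2 (0.06), Derl1 (0.023) and Herpud1 (0.257) in wild type cells, and for Edem2 (0.177), Derl1 (0.447) and Herpud1 (0.133) in transgenic cells. The mean of probe sets turned Spcs1 (−0.191) in wild type and Sec11c (−0.112) in transgenic cells. The median stimulation change in wild type cells was 0.817 on deposited values, 1.43 with array medians subtracted and 0.498 with the mean of probe sets. In transgenic cells it was 0.7, 1.34 and 0.423.

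The replicate block ended the stimulated genotype call of Spcs1 (0.313, limma adjusted p = 0.0668) and no other call of the 47 genes.

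Under all 13 alternatives run, Creld2, Derl3, Edem1, Manf, Mzb1, P4hb, Pdia4, Spcs1 and Tent5c were called higher in unstimulated transgenic cells, and Derl3, Edem1, Spcs2 and Txndc5 in stimulated ones.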
